A study of Homo sapiens with 6 samples.

Results

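Matricellular and matrix glycoproteins are secreted proteins that build the pericellular matrix or change how cells attach to it. The set described here was given as a list of 10 gene symbols, FN1, TGFBI, THBS1, THBS2, TNC, SPARC, FBN1, LUM, LOX and LOXL2. The list was not computed from measured values, but it was chosen with earlier results of these data known. All 10 were found among the 40895 NCBI gene identifiers of the count files, and 9 of them were among the 15954 genes tested. PolyA-selected RNA of A375SM, a melanoma line selected from human A375 cells for metastasis, was sequenced in 6 libraries. A control short hairpin RNA (shCtrl) had been transduced into the cells of 3 libraries and a hairpin against PRAME (shPRAME), a tumour antigen of melanoma, into those of the other 3. The genotype label WT, the tissue label skin and the batch label are shared by all of them. The submitters speak of biological replicates for shCtrl and of replicates for shPRAME. No label ties a replicate to its own culture or transduction, so the p-values cover the spread among these libraries alone, and that spread could be technical. The labels used here give no culture time, hairpin sequence or number of hairpins.

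Fibronectin (FN1) polymerises into fibrils that cells grip through integrins, and many other matrix proteins are laid down on it. Matricellular proteins (thrombospondins, tenascin-C, SPARC, TGFBI) add little to mechanical structure and instead tune adhesion, growth factor activation and motility. Fibrillin-1 (FBN1) builds microfibrils that store latent TGF-beta, lumican (LUM) spaces collagen fibrils, and the lysyl oxidases (LOX, LOXL2) cross-link collagen and elastin. Melanoma cells secrete several of these proteins themselves, and SPARC, TNC and FN1 have long been studied in melanoma invasion.

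Libraries held 30842788 to 34107332 counts. Levels are CPM, the counts of a gene relative to the library total after TMM scaling. A floor of 3 counts, the limit that a count of 0 allows, corresponded to 0.088 to 0.0973 CPM of the library totals before that scaling, covering counting error only. PRAME, the targeted gene, stood at 166.4, 163.9 and 164.8 CPM in the control libraries against 57.7, 57.8 and 53.8 CPM in the knockdown libraries, 2.92-fold lower (edgeR adjusted p = 4.85e-17). Values given with ± are means and SDs over the 3 libraries of a group. The melanoma label was met by SOX10, the neural crest lineage factor (265.7 ± 7.95 CPM in shCtrl and 275.4 ± 1.48 in shPRAME), and by the melanoma proteoglycan gene CSPG4 (813.4 ± 42.9 and 562.4 ± 10.4). Of 12 melanoma markers 5 stayed under 1 CPM in every library, and these were the pigment cell genes PMEL, MLANA, TYR, TYRP1 and DCT, named after their values were seen. The share of counts on ribosomal RNA genes was 5.51% ± 0.179 in control and 2.98% ± 0.580 in knockdown libraries.

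The genes moved in both directions. FN1, TGFBI, THBS1, SPARC and LOXL2 fell, and THBS2, TNC, FBN1 and LUM rose, each with the 3 shPRAME libraries all above or all below the 3 shCtrl libraries. LOX was at the limit of detection and was not tested. Passing the test, an edgeR adjusted p under 0.05, was common in this comparison. It was met by 74.4% of all tested genes (37.7% higher and 36.8% lower), and by 86.4% of the genes with a mean of at least 100 CPM, a level that 6 of the 10 genes reached. The groups did not overlap at 76.5% of all tested genes. A passing test, or groups that do not overlap, therefore sets these genes apart little. The sizes of the changes are described next. Since the genes were chosen with earlier results of these data known, large sizes cannot set them apart either. Changes of at least 2-fold were seen in 3 upward (THBS2, FBN1, LUM) and 2 downward (TGFBI, THBS1), against 10.1% and 8.43% of all tested genes. The median log2 fold change was -0.09 over the 9 tested genes and 0.01 over all tested genes, and the median size without sign was 1.22 and 0.38. LUM entered the test only through its counts in shPRAME, so the filter itself favoured a rise. Its rise adds nothing to the counts above, and the median size includes it.

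**Figure D1:**
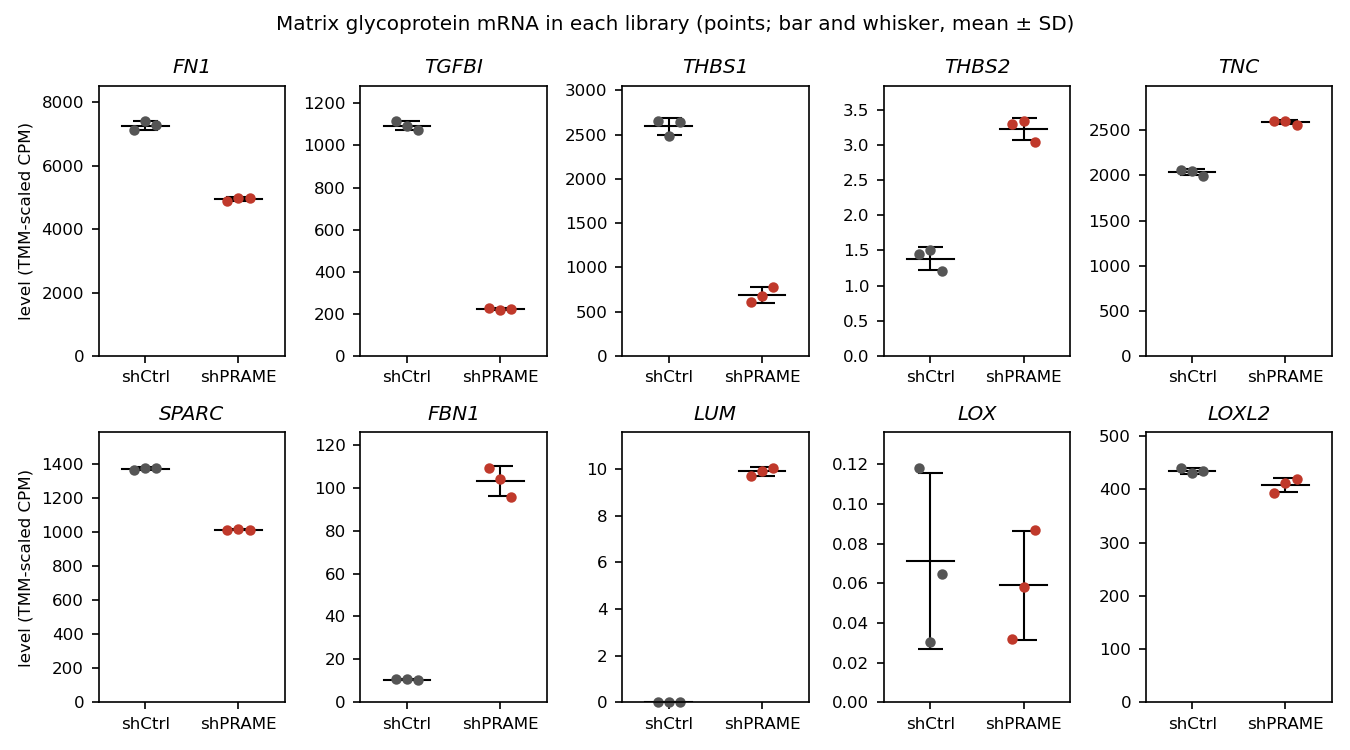
Level of each of the 10 genes in every library, with TMM-scaled CPM on a linear axis that starts at 0 and differs between panels. Points are libraries, the bar and whisker are mean ± SD of 3. FN1, TGFBI, THBS1, SPARC and LOXL2 lie lower and THBS2, TNC, FBN1 and LUM higher in shPRAME, while the LOX libraries overlap at no more than 0.118 CPM.

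FN1 (NCBI gene 2335, chromosome 2, 215360865 to 215436068, GRCh38) gave the most abundant of these mRNAs in both groups. Its level was 7120, 7406 and 7283 CPM in the shCtrl libraries and 4884, 4987 and 4975 CPM in the shPRAME libraries. Every knockdown library was thus about equally low, and the mean stood at 68.1% of the control mean (log2 fold change -0.55, SE 0.0241, edgeR adjusted p = 1.16e-12). FN1 alone made up 49.1% ± 0.812 of the summed CPM of the 10 genes in shCtrl and 49.5% ± 0.207 in shPRAME (exact permutation p = 0.5, 2-sided, n = 3 each), so its share of the set did not differ beyond the spread between libraries. The summed level of all 10 fell by 4825 CPM, from 14814 ± 48.4 to 9990 ± 125 CPM, without overlap between groups. The exact 2-sided permutation p of 0.1 for this sum is the smallest that 3 against 3 libraries can give. In raw counts the set took 1.46% ± 0.00691 of a control library and 1.02% ± 0.0163 of a knockdown library.

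TGFBI (gene 7045, chromosome 5, 136028988 to 136063818) encodes a secreted adhesion protein that TGF-beta induces and that binds integrins and collagen. It had 1115, 1092 and 1073 CPM in shCtrl and 228.9, 217.7 and 222.9 CPM in shPRAME. This 4.90-fold drop was the largest among the genes that fell, and the libraries within each group were close to one another (log2 fold change -2.29, SE 0.0261, edgeR adjusted p = 2.79e-20). SPARC (gene 6678, chromosome 5, 151661096 to 151686915), also called osteonectin, is a collagen-binding, counter-adhesive protein. Its level was 1364, 1378 and 1379 CPM in shCtrl and 1014, 1016 and 1013 CPM in shPRAME. The level stood at 73.9% of control (log2 fold change -0.44, SE 0.0218, edgeR adjusted p = 7.73e-12). The 3 knockdown libraries differed from one another by less than those of any other member, with an SD of 0.134% of their mean. That is less than counting error alone gives at 31677 to 35024 counts, so the closeness is not read as a trait of SPARC.

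Tenascin-C (TNC, gene 3371, chromosome 9, 115019575 to 115118157) is a hexameric glycoprotein of embryonic and tumour matrix that can weaken adhesion to fibronectin. TNC had 2059, 2054 and 1999 CPM in shCtrl and 2601, 2601 and 2564 CPM in shPRAME. It rose 1.27-fold (log2 fold change 0.35, SE 0.0233, edgeR adjusted p = 4.74e-10) and was the only one of the 6 genes with a mean of at least 100 CPM that was higher in the knockdown libraries. A noncoding gene annotated within the TNC interval, LOC124902256, named after its values were seen, fell from 12.6 ± 1.32 to 8.26 ± 0.728 CPM (adjusted p = 8.69e-06). Whether strand was used in counting is unknown, so reads where both genes lie cannot be told apart, although TNC was far more abundant. The other tenascins were far lower. TNXB did not pass (1.14 ± 0.119 and 1.43 ± 0.275 CPM), TNR had no count in any library and TNN reached at most 0.0579 CPM.

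Thrombospondins bind calcium, matrix and several cell surface receptors. Thrombospondin-1, which can release TGF-beta from its latent complex and restrains angiogenesis through CD36, and thrombospondin-2, its closest relative, moved in opposite directions. THBS1 (gene 7057, chromosome 15, 39581079 to 39599466) had 2652, 2485 and 2643 CPM in shCtrl and 605.7, 680.9 and 784.2 CPM in shPRAME. The knockdown libraries held 23.4%, 26.3% and 30.2% of the control mean, and their spread was wide for so abundant a gene (log2 fold change -1.91, SE 0.0610, edgeR adjusted p = 1.96e-14). THBS2 (gene 7058, chromosome 6, 169215785 to 169253846) had 1.45, 1.5 and 1.2 CPM in shCtrl and 3.30, 3.34 and 3.04 CPM in shPRAME, from 37 to 115 counts a library. It rose 2.33-fold but remained a minor transcript (log2 fold change 1.22, SE 0.145, edgeR adjusted p = 8.00e-07). The log2 ratio of THBS1 to THBS2 within a library was 10.8, 10.7 and 11.1 in shCtrl and 7.52, 7.67 and 8.01 in shPRAME, a difference of -3.14 without overlap (exact 2-sided permutation p = 0.1, the smallest possible). THBS3 did not pass (16.2 ± 0.713 and 17.5 ± 1.36 CPM), and THBS4 and COMP, the remaining thrombospondins, stayed under 1 CPM. Per kb of transcript, THBS1 accounted for 98.4% ± 0.0609 of thrombospondin mRNA in shCtrl and 93.5% ± 1.21 in shPRAME (exact permutation p = 0.1).

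The sequences before the starts of 4 genes are shown because THBS1 and THBS2 are paralogs that moved in opposite directions, and TGFBI and TNC are abundant genes of which the first fell and the second rose. They are the 250 bases before the RefSeq start (GRCh38.p14), read 5′ to 3′ in the direction of the gene: THBS1 chr15:39580829-39581078 (plus strand), THBS2 chr6:169253847-169254096 (minus strand), TGFBI chr5:136028738-136028987 (plus strand) and TNC chr9:115118158-115118407 (minus strand). Capitals mark matches to the motifs listed after them.
THBS1: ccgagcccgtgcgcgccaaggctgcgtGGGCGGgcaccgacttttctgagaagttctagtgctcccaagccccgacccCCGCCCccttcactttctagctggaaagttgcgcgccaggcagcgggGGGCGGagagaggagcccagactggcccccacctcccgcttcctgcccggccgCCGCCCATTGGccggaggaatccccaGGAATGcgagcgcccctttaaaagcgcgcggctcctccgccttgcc
THBS2: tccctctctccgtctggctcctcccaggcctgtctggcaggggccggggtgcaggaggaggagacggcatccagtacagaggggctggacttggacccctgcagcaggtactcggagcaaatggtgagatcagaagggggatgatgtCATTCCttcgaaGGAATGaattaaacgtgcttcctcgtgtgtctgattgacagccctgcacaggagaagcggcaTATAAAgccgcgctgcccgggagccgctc
TGFBI: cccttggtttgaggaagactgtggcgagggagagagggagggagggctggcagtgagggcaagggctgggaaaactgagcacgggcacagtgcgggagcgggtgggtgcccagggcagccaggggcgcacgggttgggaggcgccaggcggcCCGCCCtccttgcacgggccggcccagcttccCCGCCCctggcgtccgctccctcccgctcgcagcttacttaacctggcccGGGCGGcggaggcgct
TNC: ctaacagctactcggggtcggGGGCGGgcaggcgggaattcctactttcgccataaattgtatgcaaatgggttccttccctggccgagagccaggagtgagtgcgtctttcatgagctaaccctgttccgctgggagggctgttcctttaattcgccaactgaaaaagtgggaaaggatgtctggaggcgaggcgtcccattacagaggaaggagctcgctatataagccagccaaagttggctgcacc

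Motifs were searched on both strands: the TATA box as TATAAA, the CCAAT box as CCAAT, the GC box as GGGCGG, the AP-1 site as TGAGTCA, the cyclic AMP response element as TGACGTCA, the TEAD site as GGAATG, and the CArG box by its usual consensus. The THBS1 window held 4 GC boxes, 1 CCAAT box at -66 to -62 and 1 TEAD match at -46 to -41, counted from the start. That of THBS2 held no GC box, a TATA box at -29 to -24 and 2 TEAD matches in opposite orientations at -103 to -98 and -91 to -86. TGFBI had 3 GC boxes and TNC 1, and neither had another of these motifs as spelled here. The TNC window reads tatataag near its end, which the search for TATAAA did not count. Among 35116 windows of the same length, 42.6% held a GC box, 32.0% a CCAAT box, 11.9% a TEAD match, 10.7% a TATA box, 4.2% an AP-1 match, 1.65% a cyclic AMP response element and 1.16% a CArG box. GC content was 69.6% for THBS1, 60.0% for THBS2, 72.8% for TGFBI and 54.8% for TNC, with a median of 58.0% over all windows. Of the 10 genes 8 had an entry in the promoter table. A match describes the letters only, and a missing match says nothing of the factor.

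FBN1 and LUM, both scarce in control cells, showed the largest increases. FBN1 (gene 2200, chromosome 15, 48408313 to 48645709) had 10.7, 11.0 and 10.2 CPM in shCtrl and 109.3, 104.0 and 95.6 CPM in shPRAME. It rose 9.66-fold (log2 fold change 3.27, SE 0.0549, edgeR adjusted p = 4.29e-18) and reached a level that no control library approached. LUM (gene 4060, chromosome 12, 91102629 to 91111494) had 0, 1 and 0 counts in the control libraries, against 303, 342 and 347 in those of the knockdown. In shPRAME its level was 9.89 ± 0.178 CPM, and the ratio over the summed counts, 963.2, has an exact 95% counting interval of 172.5 to 38081 because it rests on 1 control count. In bulk RNA, more expressing cells and more RNA per cell cannot be told apart.

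LUM is also a marker of fibroblasts. Of 9 fibroblast markers, LUM included, 5 rose, 2 fell and 2 were not tested. LUM and the collagen genes COL1A1, COL1A2 and COL3A1, 4 of the 5 that rose, passed the filter on low counts only through shPRAME. The summed level of all 9 markers was 112.5 to 116.5 CPM in shCtrl and 88.1 to 95.3 CPM in shPRAME, which was lower because PDGFRB fell from 64.3 ± 1.86 to 17.4 ± 1.32 CPM and FAP from 46.1 ± 1.2 to 27.0 ± 0.771 CPM. The remaining fibroblast markers were picked with their values known. Beside LUM, PDGFRA and the 3 collagen genes rose. COL1A2 had no count in any shCtrl library and 718, 735 and 704 counts in shPRAME, at least 698.1-fold higher against 3 counts over the shCtrl group, and COL3A1 went from 2, 0 and 1 to 103, 73 and 80 counts. COL1A1 reached 0.608 CPM at most and the proteoglycan gene DCN, without a count in shCtrl, 0.463 CPM. The surface marker gene THY1 had 0 to 5 counts in shCtrl and 0 to 1 in shPRAME. Endothelial markers summed to 13.8 to 15.03 CPM in shCtrl and 7.46 to 7.91 CPM in shPRAME, with EGFL7 at 12.6 ± 0.495 and 2.43 ± 0.0340 CPM and TIE1 at 1.24 ± 0.227 and 1.85 ± 0.176 CPM. TEK, an angiopoietin receptor gene named after its values were seen, went against that fall, with 1 count in each shCtrl library and 77, 99 and 105 in shPRAME, where its 2.79 CPM made it the highest of the list. Leukocyte markers summed to 43.2 to 45.5 and 72.5 to 74.4 CPM, nearly all of it CD68 (43.9 ± 1.16 and 70.7 ± 0.767 CPM), a lysosomal protein gene, with LYZ at 0.0707 ± 0.0437 and 1.31 ± 0.155 CPM and PTPRC, which had no count in control libraries, at 36, 29 and 27 counts in shPRAME. TEK, LYZ and PTPRC passed the filter on low counts only through shPRAME, so the filter itself favoured a rise. Keratinocyte markers summed to 27.7 to 29.6 and 23.2 to 24.4 CPM, with KRT10 at 28.2 ± 1.08 and 23.4 ± 0.613 CPM, KRT14 at 0.326 ± 0.128 and 0.209 ± 0.0205 CPM and KRT5, KRT1, TP63 and IVL without a count. The part of other cell types in the rise of LUM was not tested.

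The 2 lysyl oxidases of the set differed in level far more than between groups. LOX (gene 4015, chromosome 5, 122063195 to 122078259) had 4, 1 and 2 counts in shCtrl and 1, 2 and 3 counts in shPRAME, too few for a test. The ratio of the summed counts was 0.832, with an exact 95% counting interval of 0.231 to 2.89, so a difference was not detectable at this depth. SRFBP1, annotated as overlapping the LOX interval and named after its values were seen, had 24.9 ± 1.42 CPM in shCtrl and 22.6 ± 1.07 in shPRAME. Whether strand was used in counting is unknown, so the few LOX counts are uncertain where both genes lie. LOXL2 (gene 4017, chromosome 8, 23296897 to 23404120), which also acts on histones and in melanoma and carcinoma invasion models, had 440.6, 429.9 and 434.1 CPM in shCtrl and 393.4, 411.1 and 420.2 CPM in shPRAME. It fell by 0.09 on the log2 scale (SE 0.0255, edgeR adjusted p = 3.99e-03), the smallest change among the genes tested here. That call was lost when libraries were scaled to their totals alone (-0.04, edgeR adjusted p = 0.178) and against a minimum fold of 1.2 (adjusted p = 1). Without shPRAME replicate 1, the lowest library, the change was -0.06 (edgeR adjusted p = 0.0418). The log2 ratio of LOX to LOXL2 was -12.8 ± 0.960 in shCtrl and -12.9 ± 0.676 in shPRAME (exact permutation p = 0.9, n = 3 each).

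The cells drew their lysyl oxidase mRNA from 3 genes. LOXL2 stood at 122.5 ± 1.52 CPM per kb of its longest transcript in shCtrl and 115.0 ± 3.85 in shPRAME. LOXL3, a paralog, stood at 112.0 ± 3.44 and 118.1 ± 0.785 CPM per kb, a rise of 0.08 on the log2 scale (edgeR adjusted p = 9.54e-03). LOXL4 stood at 68.0 ± 3.32 and 64.9 ± 2.44 CPM per kb and did not pass (adjusted p = 0.0728), and LOXL1 had at most 1 count in a library. Summed over the family the level was 302.6 ± 7.25 and 298.0 ± 2.03 CPM per kb (exact permutation p = 0.4), a difference within the spread between libraries. Like the other thrombospondins, tenascins and fibrillins, these paralogs fall outside the rule for named genes and were chosen after their values were seen.

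Per kb of the longest transcript, the scale on which genes can be compared, the order in shCtrl was FN1 (792.7 ± 15.7 CPM per kb), SPARC (371.1 ± 2.30), THBS1 (333.6 ± 12.1), TNC (266.6 ± 4.35), TGFBI (234.6 ± 4.51), LOXL2 (122.5 ± 1.52), FBN1 (0.907 ± 0.0328), THBS2 (0.238 ± 0.0276), LOX (0.0140 ± 0.00867) and LUM. Neighbours in this order did not overlap except LOX and LUM, which were both near 0. In shPRAME the order was FN1 (539.6 ± 6.13), TNC (338.8 ± 2.80), SPARC (274.1 ± 0.367), LOXL2 (115.0 ± 3.85), THBS1 (88.8 ± 11.5), TGFBI (47.9 ± 1.2), FBN1 (8.76 ± 0.588), LUM (3.29 ± 0.0591), THBS2 (0.555 ± 0.0275) and LOX (0.0116 ± 0.00538), and no neighbours overlapped. TNC thus passed SPARC, and LOXL2 passed both THBS1 and TGFBI. Which isoforms the cells used is unknown, and the order would shift where a shorter transcript prevails.

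**Figure D2:**
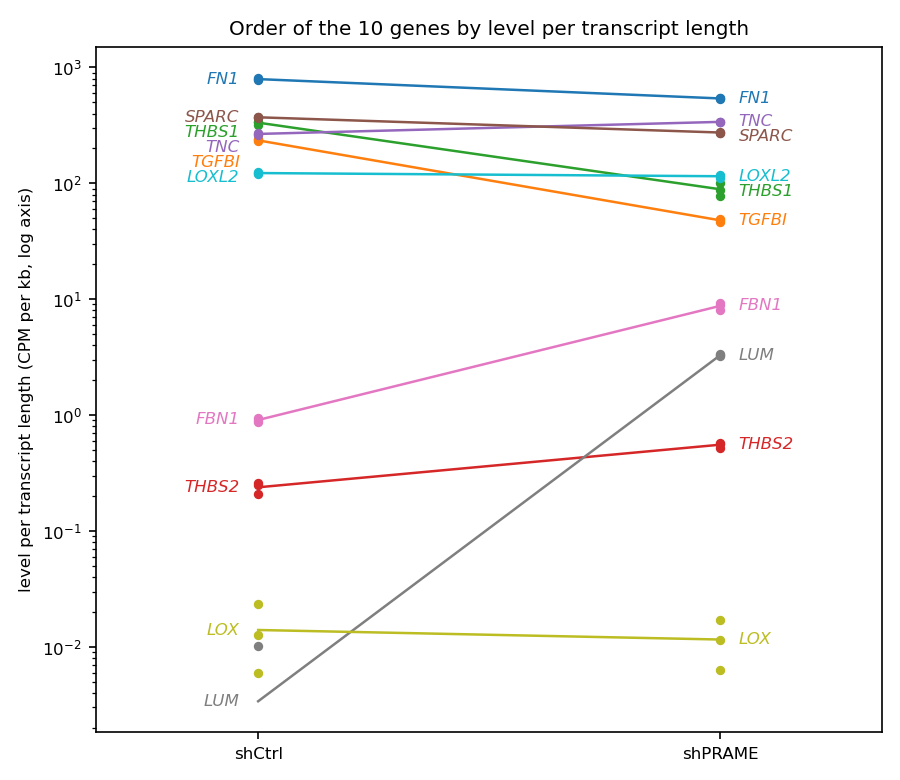
Level per transcript length of the 10 genes in shCtrl and shPRAME, in CPM per kb on a log axis. Points are libraries, lines join the group means, labels are spread apart for legibility and libraries with a count of 0 (LUM in shCtrl) are not drawn. TNC moves from rank 4 to rank 2, THBS1 from 3 to 5, and LUM from 10 to 8.

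Related matrix genes were described by lists, beside 37.7% of all tested genes higher and 36.8% lower. Of 21 other matricellular genes 12 were tested, of which 5 rose, 4 fell and 3 did not pass (median log2 fold change 0.21). Of the 5 that rose 3 (POSTN, CCN3 and CCN4) passed the filter on low counts only through shPRAME. The filter itself favoured a rise of these 3, and their rise adds nothing to the count. POSTN, periostin, a TGF-beta-induced relative of TGFBI, rose from 5 to 544 counts, summed over each group (ratio 105.6, exact 95% interval 45.0 to 326.7), the direction opposite to TGFBI. CCN4 rose from 0.243 ± 0.128 to 2.60 ± 0.183 CPM. SPP1, osteopontin, fell from 29.9 ± 0.575 to 12.1 ± 0.703 CPM, and CCN2, connective tissue growth factor, from 192.2 ± 8.92 to 70.6 ± 12.2 CPM.

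Microfibril and elastic fibre genes, the partners of FBN1, were mostly higher. Of 17 listed 11 were tested, of which 7 rose, 5 of them at least 2-fold, 1 fell and 3 did not pass (median log2 fold change 0.55). At least 2-fold higher were 10.1% of all tested genes. The 3 that did not pass, named after their values were seen, were ELN, MFAP2 and EMILIN1 (log2 fold change -0.23, 0.05 and 0.03). EFEMP1, fibulin-3, rose from 1.39 ± 0.235 to 31.1 ± 0.343 CPM and LTBP1, which tethers latent TGF-beta to fibrillin, from 1.88 ± 0.200 to 10.4 ± 0.114 CPM, while LTBP4 fell from 47.2 ± 2.46 to 39.4 ± 1.30 CPM. The other fibrillins stayed under 1 CPM. Among 9 other small leucine-rich proteoglycans, the family of LUM, 3 were tested and these 3 rose. FMOD, fibromodulin, a collagen-binding relative of lumican, had 1 count in all shCtrl libraries together and 1421 in shPRAME (ratio 1380, counting interval 247.2 to 54533), and BGN, biglycan, from 24.9 ± 0.585 to 46.4 ± 0.166 CPM. The 6 others had under 1 CPM in every library. FMOD, like LUM, passed the filter on low counts only through shPRAME.

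Collagen cross-linking genes split evenly. Of 16 listed 14 were tested, of which 7 rose, 6 fell and 1 did not pass (median log2 fold change 0.00). The scarce genes P4HA3, which rose, and TLL2, which fell, passed the filter on low counts only through the group where they were higher. TGM2, a transglutaminase that cross-links fibronectin, fell from 311.0 ± 1.27 to 155.3 ± 12.2 CPM and the collagen prolyl hydroxylase gene P3H1 from 79.5 ± 0.910 to 58.5 ± 1.87 CPM. PCOLCE2, an enhancer of procollagen processing, rose from 9.25 ± 0.368 to 21.4 ± 0.628 CPM and the lysyl hydroxylase gene PLOD1 from 212.5 ± 6.09 to 248.3 ± 2.95 CPM.

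Receptors of these proteins were mostly higher, with small changes. Of 18 listed 17 were tested, of which 14 rose, 2 fell and 1 did not pass (median log2 fold change 0.38). At least 2-fold higher were 2 of them, against 10.1% of all tested genes. ITGA8, an integrin chain that binds fibronectin and tenascin-C, rose from 0.194 ± 0.0720 to 15.8 ± 1.34 CPM, having passed the filter on low counts only through shPRAME, and the heparan sulfate proteoglycan gene SDC1 from 7.74 ± 0.633 to 28.3 ± 1.39 CPM. ITGB8 fell from 225.9 ± 16.3 to 92.8 ± 2.26 CPM and ITGAV, the integrin chain that pairs with beta 8, from 218.9 ± 14.3 to 136.4 ± 3.79 CPM. Of 8 TGF-beta ligands and receptors 4 rose, 2 fell and 2 did not pass (median log2 fold change 0.21). TGFB1 rose from 70.4 ± 3.44 to 91.5 ± 0.472 CPM and TGFBR3 from 6.23 ± 0.590 to 9.56 ± 0.721 CPM, whereas INHBA fell from 587.2 ± 33.3 to 479.0 ± 23.1 CPM and ENG from 48.5 ± 0.391 to 45.1 ± 0.956 CPM.

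**Figure D3:**
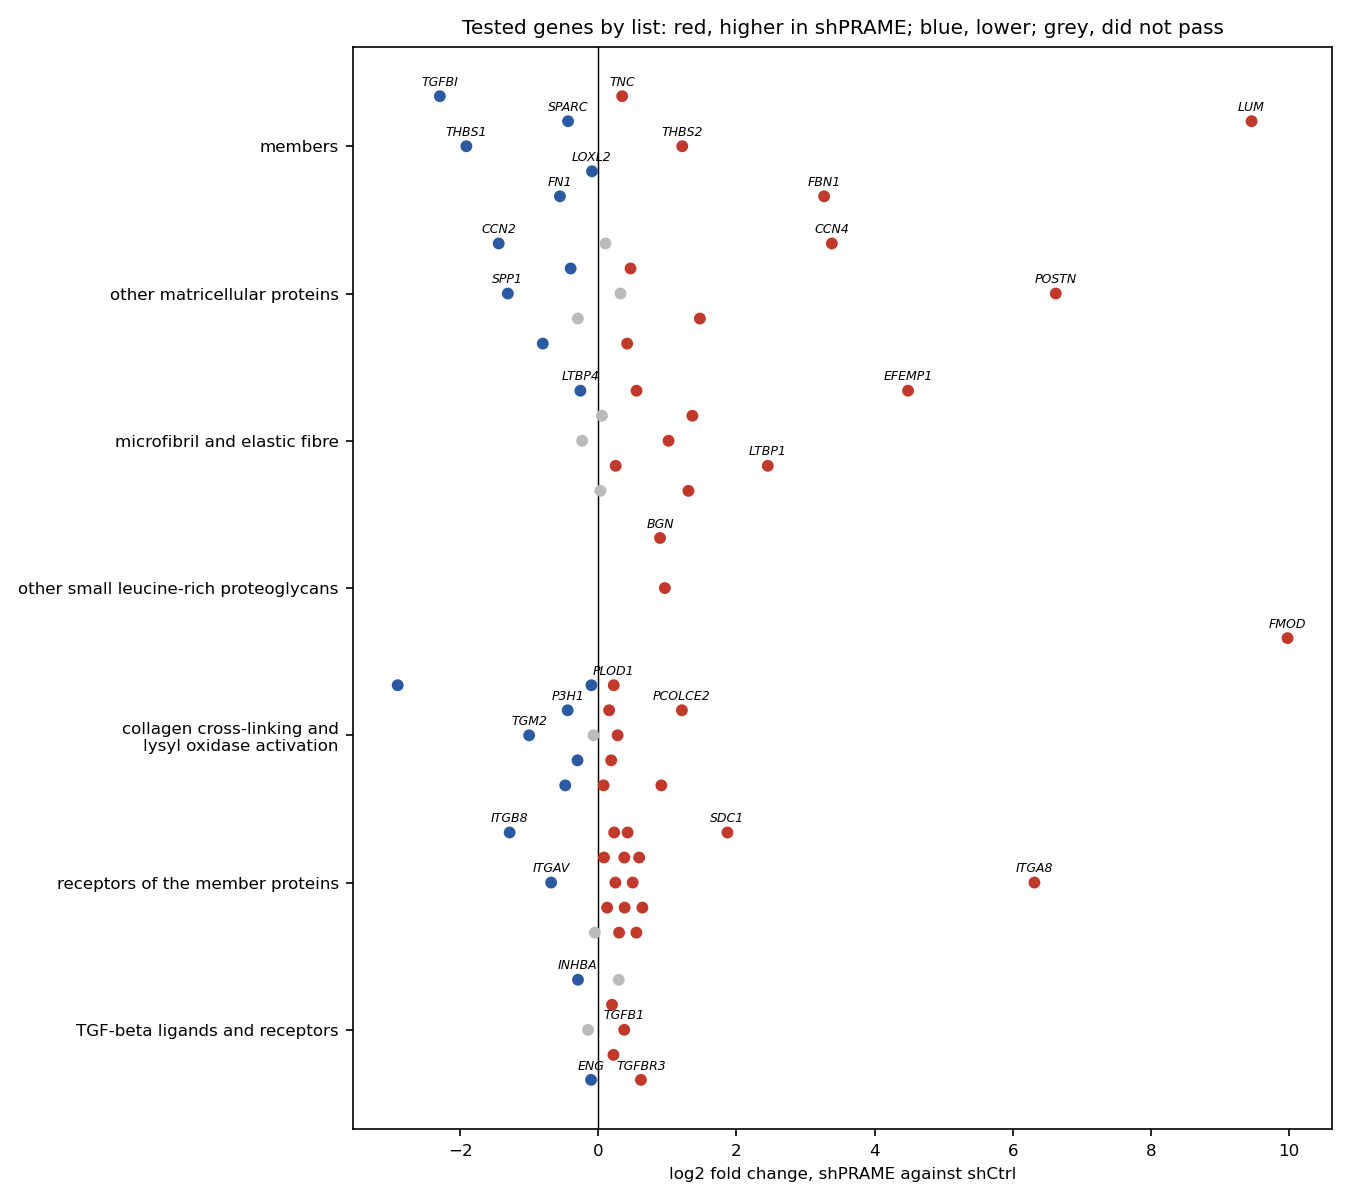
Log2 fold change of every tested gene of the 10 and of the related lists, shPRAME against shCtrl, with named genes labelled. Red points rose, blue points fell and grey points did not pass, and vertical offsets only separate points. The fitted values of LUM, FMOD and POSTN rest on 1, 1 and 5 control counts. The 14 receptors that rose and the 7 microfibril genes that rose lie to the right of 0.

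FN1, THBS1 and TGFBI were compared with 10345 other protein-coding genes with a mean of at least 5 CPM, by the root mean square difference of centred log2 CPM over the 6 libraries. With 2 groups this measure reads mainly the size of the change. Closest to FN1 were ZYX, which encodes the focal adhesion protein zyxin (distance 0.0131; 122.0 ± 1.92 to 82.8 ± 1.78 CPM), PEAK1 (0.0134) and AGO1 (0.0159). Closest to TGFBI were the receptor phosphatase gene PTPRJ (0.0258; 159.8 ± 0.840 to 31.7 ± 0.979 CPM), EGFL7 (0.0333) and S100A3 (0.0468). THBS1 had no neighbour as near: UBE2L6 lay at 0.0711, EVA1B at 0.0772 and CDKN2C at 0.0988.

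The spread of THBS1 among the shPRAME libraries was shared by some matricellular genes of the lists and not by others. Relative to the shCtrl mean, CCN2 stood at 30.7%, 36.1% and 43.3% in shPRAME replicates 1, 2 and 3, and CCN1 at 49.3%, 57.0% and 65.1%. TGM2 stood at 46.7%, 48.8% and 54.3%, with the lowest value again in replicate 1. TGFBI was at 20.9%, 19.9% and 20.4% and SPARC at 73.8%, 74.0% and 73.8%, with no such difference. LOXL2 stood at 90.5%, 94.5% and 96.6%, the same order as THBS1 over a narrower range. FBN1, which rose, had the reverse order, at 109.3, 104.0 and 95.6 CPM in shPRAME replicates 1, 2 and 3. CCN1 was picked with its values known. The share of ribosomal RNA was 3.64%, 2.78% and 2.53% in the same libraries, and its part in this spread was not tested.

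**Figure D4:**
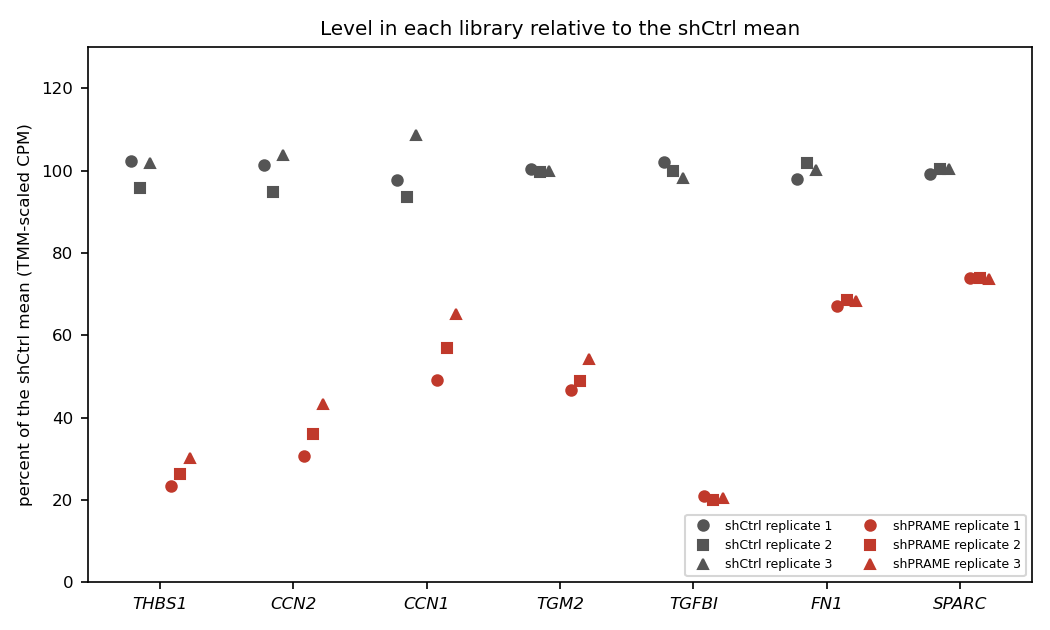
Level of 7 matrix genes in each library as a percentage of the shCtrl mean of the gene, on a linear axis from 0. Symbols mark the replicate number and colours the group. In shPRAME replicate 1 is the lowest and replicate 3 the highest for THBS1, CCN2, CCN1 and TGM2, while TGFBI and SPARC show almost 1 value in all 3 libraries.

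Genes near SPARC and TGFBI were lower as well. Of 24 tested genes within 2 Mb of SPARC 16 fell and 2 rose (median log2 fold change -0.32). Of all tested genes 36.8% fell. Among the 24, 11 were at least as low as SPARC (-0.44), for which -0.11 was left after subtraction of that median. Within 2 Mb of TGFBI 17 of 22 genes fell (median -0.34), but none was as low as TGFBI, and -1.95 was left. TNC (0.35) lay among genes with a median of 0.20, of which 11 of 27 were at least as high, and 0.15 was left. Around FN1 the median was -0.12, with 11 of 20 genes called lower and 5 at least as low as FN1. Around LOXL2 it was -0.02, with 15 of 39 called lower and 19 at least as low as LOXL2. None of the neighbours of THBS1 (47 tested, 20 lower), FBN1 (17, 7 lower), THBS2 (19) or LUM (11, 2 lower) moved as far in the direction of that gene. The neighbours of THBS2 were mostly lower (13 of 19, median -0.41). No gene of the set changed direction. The distance was chosen after the data were seen, and the subtracted values carry no test.

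**Figure D5:**
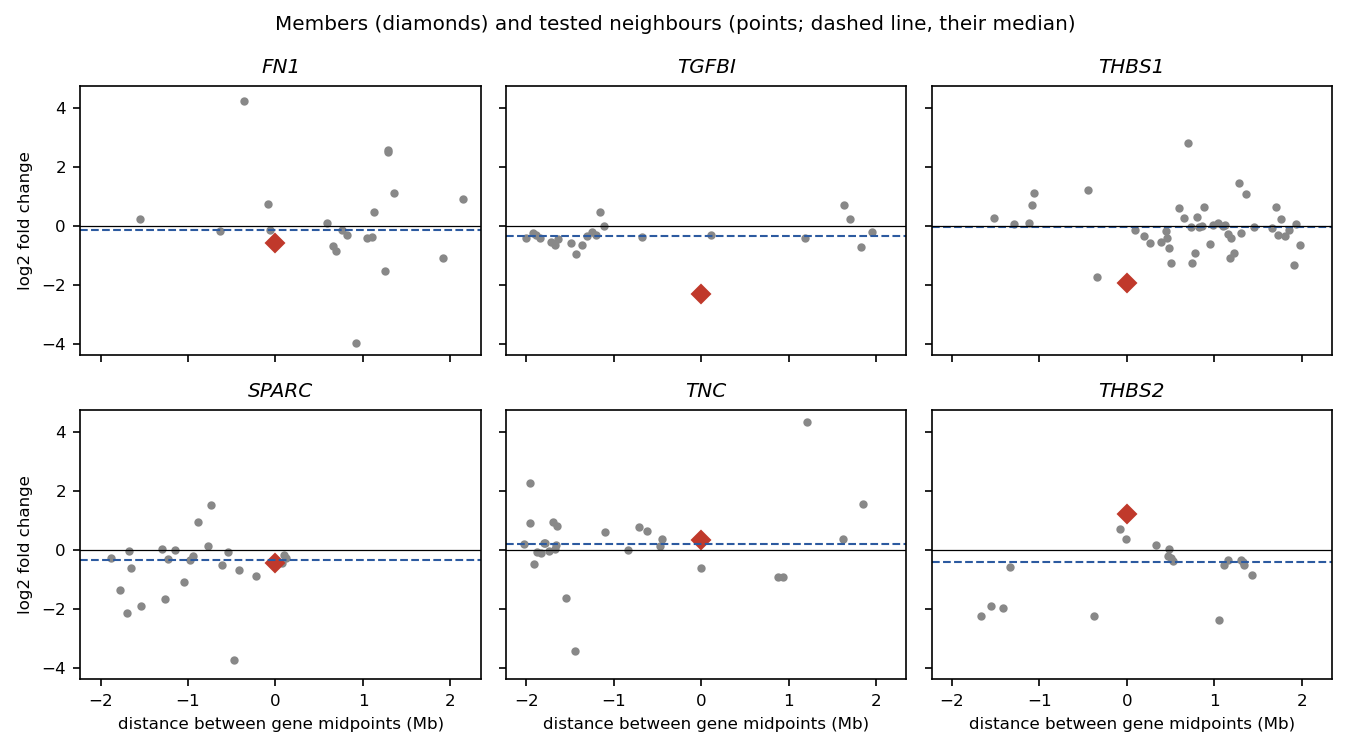
Log2 fold change against the distance between gene midpoints in Mb for 6 of the genes (diamonds) and the tested genes within 2 Mb of each (points), with the median of the points as a dashed line. SPARC and TNC lie among their neighbours, and TGFBI, THBS1 and THBS2 lie outside theirs.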

How the data were processed

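Each deposited file holds 1 library as raw, whole-number counts by NCBI gene identifier, per the file headers. Per the submitters' processing notes, GRCh38 (hg38) was used with STAR, Salmon and fastp. Neither the program that made the counts nor its annotation and strand setting is stated in these sources, so genes that overlap or have near-identical copies are uncertain. Repeated identifiers (34 of 40929 rows) were added together. Symbols and coordinates came from RefSeq GRCh38.p14 (40789 of 40895 identifiers matched), promoter sequences from RefSeq of the same build, and transcript lengths from the longest GENCODE release 29 transcript.

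Counts of 3 shCtrl and 3 shPRAME libraries were compared in R 4.3.3 by edgeR 4.0.16 (filterByExpr, TMM, quasi-likelihood F test, 2-sided, group as the only term), with Benjamini-Hochberg adjustment over all 15954 tested genes. Standard errors are the size of the log2 fold change over the square root of F. The procedure was tested on simulated data in which few genes changed, whereas 74.4% of tested genes passed here. The simulation therefore does not show how the procedure performs at such a share. Intervals and floors cover counting error only. Sums and ratios were compared by exact permutation of libraries. Replicate pairs differed by more than sampling noise (chi-square per degree of freedom 2.42 to 8.06). Alternatives were RLE or library-total scaling, no or a stricter filter on low counts (1 CPM in 3 libraries), DESeq2 1.42.0, limma-voom (limma 3.58.1), a test against a fold of 1.2, a block for the replicate number, and omission of each library in turn. Removal of ribosomal RNA genes, subtraction of the neighbourhood median and omission of FN1 from the sum were added after the data were seen.

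The genes and the lists were chosen with earlier results of these data known. Named were PRAME, the 10 genes, for each related list the 2 genes of lowest adjusted p among those that rose and among those that fell (mean of 1 CPM or more), the 3 genes closest to FN1, THBS1 and TGFBI, and the 2 most abundant markers of each cell type.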

Additional observations from a re-analysis of the deposited data

How the results depend on the processing

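The direction of each of the 9 tested genes was the same under every alternative, and the only calls lost were those of LOXL2 given in the report. The number of genes called was 11875; it was 7726 against a minimum fold of 1.2 and 11390 to 11704 without 1 library. Without a filter on low counts LOX was tested and did not pass (edgeR adjusted p = 0.850). The difference in the summed level, -4825 CPM, was -4392 with scaling to library totals, -2504 without FN1 and -4881 to -4692 without 1 library. The LOX to LOXL2 ratio, which differed by -0.09, ranged from -0.59 to 0.37 without 1 library, since LOX had 1 to 4 counts. Without 1 library the log2 fold change ranged from -2.00 to -1.82 for THBS1 and from -0.10 to -0.06 for LOXL2. Ratios of LUM, FMOD and POSTN are limited by 1, 1 and 5 control counts. Scaling to library totals moved the split of calls to 6609 higher and 5311 lower, from 6008 and 5867. With the replicate number as a block 11603 genes passed, the 9 among them. Deviations of libraries with the same number correlated at -0.0589, -0.119 and -0.0999, and 0 of 6 libraries correlated best with their own number, so the numbers were not taken to pair the libraries.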

Other observations

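Among 2224 protein-coding genes with a mean of at least 100 CPM, THBS1 had the second largest SD of log2 CPM between the shPRAME libraries (0.187) after CCN2 (0.248), where the median gene had 0.0234. Between the shCtrl libraries the same genes had SDs of 0.0529 and 0.0676, ranks 365 and 133. Of the replicate pairs within a group, shPRAME replicates 1 and 3 differed most (chi-square per degree of freedom 8.06). The 10 genes with the largest spread in shPRAME did not share 1 direction, but replicates 1 and 3 were the extremes in all except EIF3CL. In 6 of them, CCN2, THBS1, CRIM1, EHD4, PTPRF and TGM2, replicate 1 was lowest and replicate 3 highest. In 3, PDK4, NCOA7 and FNDC3A, replicate 1 was highest and replicate 3 lowest, and EIF3CL was lowest in replicate 2. Relative to the shCtrl mean, CRIM1 stood at 63.4%, 72.3% and 76.3% in shPRAME replicates 1, 2 and 3, EHD4 at 46.6%, 48.9% and 55.9%, and PTPRF at 70.7%, 76.5% and 83.2%. NCOA7 stood at 450.5%, 422.1% and 382.3%, and FNDC3A at 89.7%, 81.2% and 77.4%. PDK4 had 240.1, 220.5 and 200.9 CPM in the same libraries, and EIF3CL, whose spread was also the largest in shCtrl, 137.8, 121.9 and 148.8 CPM. These genes were named after their values were seen. SPARC was at the other end, at rank 2215 of the 2224, with an SD of 0.00193, which is less than counting error alone gives at its counts.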
